A study of Mus musculus with 6 samples.

Results

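The 10 genes described here encode enzymes of glycolysis, the cytosolic pathway that turns glucose into pyruvate: Hk2, Gpi1, Pfkl, Pfkp, Aldoa, Tpi1, Pgk1, Pgam1, Eno1 and Pkm. They were chosen by name, with earlier results of these data known. All 10 were found among the 21900 gene symbols of the deposited expression table. The table holds RNA sequencing of mouse inguinal white adipose tissue, the fat depot under the skin of the groin, after cold exposure. The comparison was between mice lacking the forkhead transcription factor Foxp4 in adipocytes and mice that kept it. The knockout group was 3 libraries labelled Foxp4AdipoQΔ/Δ and the control group was 3 libraries labelled Foxp4fl/fl, whose floxed allele is intact without Cre recombinase. Both groups were C57BL/6 mice aged 2 months, fed chow, housed at 22 °C and then kept at 4 °C for 7 days. The AdipoQ promoter is active in adipocytes, so other cells of the depot are not its targets. Whether any control carried Cre was not stated, so the effects of Cre and of the deletion cannot be told apart. Whether a library came from a single mouse or a pool was not stated either, so the p-values measure the spread between these libraries, which may be technical.

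Glycolysis has a preparatory phase, in which ATP is spent to phosphorylate glucose and split it into triose phosphates, and a payoff phase, in which ATP and NADH are formed on the way to pyruvate. Hexokinase, phosphofructokinase and pyruvate kinase catalyse its effectively irreversible steps, and most steps have several isozymes encoded by separate genes. Cold-exposed white fat gains thermogenic adipocytes, which take up glucose and express the mitochondrial uncoupling protein Ucp1, and the pyruvate they form can enter mitochondria, be reduced to lactate or supply carbon for fatty acids.

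Values are FPKM, fragments mapped to a gene scaled to its length in kilobases and to the sequencing depth of the library. That length was taken to be all annotated exons of the gene merged, because it gave back whole reads. It can exceed the length of a transcript. For Pfkp it is 13401 bases, against 4145 bases for the longest coding transcript. From 13182515 to 16000926 reads stood behind each library, and each glycolytic enzyme had between 1779 (Pfkp in control 1) and 51797 reads (Aldoa in knockout 3) in a library, so counting error was at most 2.37% of a value. Foxp4 itself had 1.92, 1.71 and 1.64 FPKM in the knockout libraries, against 5.76, 4.01 and 4.62 FPKM in the controls, a log2 fold change of −1.06 (SE 0.12, limma adjusted p = 0.0705). Some Foxp4 RNA thus remained in the depot. Adipocyte markers were abundant in every library, with Fabp4, a fatty acid carrier, at 2454 to 2531 FPKM in knockouts and 2238 to 2773 FPKM in controls. Not all were as even as Fabp4, and 9 of 10 mature adipocyte genes had negative log2 fold changes. The 10 summed to 9751 to 10720 FPKM in knockouts and 12460 to 13750 FPKM in controls. In bulk tissue, fewer cells of a type and less RNA per cell cannot be told apart.

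All 10 glycolytic enzyme genes had higher values in Foxp4 knockout fat, and for each of them every knockout library stood above every control library. The ratio of the group means ran from 1.29 for Tpi1 to 1.67 for Hk2. None of the 10 passed an adjusted p of 0.05 in limma; the adjusted p-values ran from 0.07865 to 0.1475. Among all 10787 genes tested, 1 passed, which is 0.00927%, and that gene was Mb, which encodes the myoglobin of muscle and thermogenic fat and averaged 10.4 FPKM in knockouts and 1.025 FPKM in controls. At an unadjusted p under 0.05, 10 of the 10 enzymes were higher, against 753 of all genes tested (6.98%), and limma-voom on reads recovered from the FPKM values gave the same counts of 10 and 0 for the enzymes. Complete separation of the groups with knockouts on top was seen in 10 of 10 enzymes and in 915 of all genes tested (8.48%). Under median-of-ratios and upper-quartile scaling of the libraries that share of all genes was 16.5% and 15.2%, and 10 and 9 of the 10 enzymes separated. The median log2 fold change, taken throughout on log2(FPKM + 1), was 0.50 over the 10 enzymes and −0.08 over all genes tested. Because the enzymes were chosen with earlier results of these data known, these contrasts with all genes are description only.

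The whole table leaned downward in knockouts, where 753 genes had higher and 1848 had lower values by that unadjusted threshold. Median-of-ratios scaling of the libraries changed that split to 1404 higher and 1001 lower, which put the share of genes higher at 13.0% of those tested. The enzymes stayed on the high side under that scaling too, with log2 fold changes of 0.46 to 0.84. A log2 fold change as high as the smallest of the 10 was reached by 4.62% of the genes tested.

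**Figure D1:**
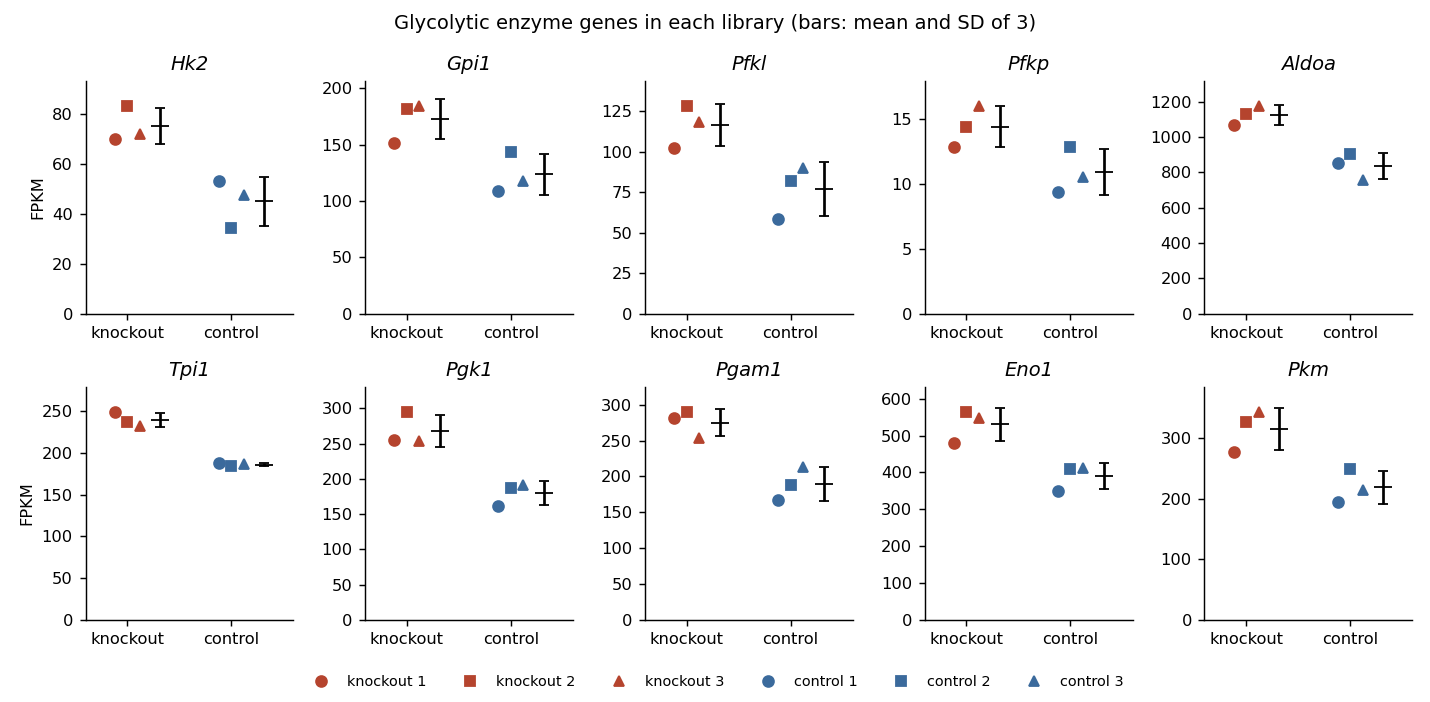
FPKM of the 10 glycolytic enzyme genes, 1 panel a gene in pathway order, with a point for each of the 3 knockout (red, left) and 3 control (blue, right) libraries and the mean and SD beside them; every axis starts at 0. In each panel the lowest knockout point lies above the highest control point, most narrowly for Pfkp at 12.88 against 12.85 FPKM.

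The stretch of 250 bases just before the annotated start is shown for the 4 enzymes with the smallest p-values, Pgk1, Tpi1, Pgam1 and Hk2, because glycolytic genes are classic targets of hypoxia-inducible factors, whose binding core is ACGTG or GCGTG. The sequences are RefSeq's for assembly GRCm38.p6, read on each gene's own strand from 5′ to 3′. Capitals mark ACGTG and GCGTG on either strand, so that CACGT and CACGC are the same cores read from the other strand. The windows are chrX:106186850-106187099 (plus strand) for Pgk1, chr6:124814159-124814408 (minus strand) for Tpi1, chr19:41911621-41911870 (plus strand) for Pgam1 and chr6:82774455-82774704 (minus strand) for Hk2.
Pgk1: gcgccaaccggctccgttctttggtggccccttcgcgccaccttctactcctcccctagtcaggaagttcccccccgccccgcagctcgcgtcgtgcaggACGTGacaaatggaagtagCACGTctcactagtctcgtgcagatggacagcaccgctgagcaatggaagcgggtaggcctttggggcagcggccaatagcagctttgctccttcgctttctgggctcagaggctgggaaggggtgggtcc
Tpi1: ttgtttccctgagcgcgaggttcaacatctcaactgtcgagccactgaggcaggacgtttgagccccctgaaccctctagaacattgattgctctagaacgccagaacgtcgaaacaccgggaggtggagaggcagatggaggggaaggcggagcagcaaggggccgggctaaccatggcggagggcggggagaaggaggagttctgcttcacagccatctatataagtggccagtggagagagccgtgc
Pgam1: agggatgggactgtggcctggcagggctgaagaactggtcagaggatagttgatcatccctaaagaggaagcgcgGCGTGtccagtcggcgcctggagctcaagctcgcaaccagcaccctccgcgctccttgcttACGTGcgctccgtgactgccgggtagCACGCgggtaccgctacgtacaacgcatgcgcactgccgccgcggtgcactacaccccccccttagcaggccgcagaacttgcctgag
Hk2: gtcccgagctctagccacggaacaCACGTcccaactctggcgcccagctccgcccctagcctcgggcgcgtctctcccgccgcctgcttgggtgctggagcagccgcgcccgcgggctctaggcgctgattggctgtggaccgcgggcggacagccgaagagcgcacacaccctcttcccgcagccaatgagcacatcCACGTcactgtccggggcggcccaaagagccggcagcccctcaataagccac

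Pgk1 and Hk2 each held 2 ACGTG cores in this window, Pgam1 held 1 ACGTG and 2 GCGTG, and Tpi1 held neither. All 10 enzymes matched the RefSeq table, with 15 start windows among them. ACGTG or GCGTG occurred in 11 of the 15 windows, against 38.6% of the 32851 start windows of all genes. Aldoa and Eno1 each have overlapping windows that hold the same cores, so those cores are counted more than once. By gene, 8 of the 10 held a core in at least 1 window, all but Gpi1 and Tpi1. No share by gene was worked out over all genes, so the 8 of 10 has no background. The enzymes' windows were richer in G and C, with a median of 62.8% against 52.4% over all windows, and these cores are themselves rich in G and C. The palindromic E-box CACGTG, which contains ACGTG, was in 0 of the 15 windows and in 6.02% of all windows. The forkhead motifs TGTTTAC and TATTTAC were in 0 of the 15 windows and in 5.76% of all windows, on either strand. These are matches of letters only.

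In the preparatory phase, Hk2 encodes hexokinase 2, which phosphorylates glucose on entry and is the insulin-responsive hexokinase of fat and muscle. Hk2 (chr6:82725025-82774454, minus strand, mm10) had 70.1, 83.2 and 72.1 FPKM in the knockouts, against 53.3, 34.3 and 47.6 FPKM in the controls. Knockout 2 was the highest library and control 2 the lowest, and the groups were 16.7 FPKM apart at their nearest. The means were 75.15 ± 7.08 FPKM in knockouts and 45.1 ± 9.79 FPKM in controls (SD, n = 3 each), and the log2 fold change was 0.74 (SE 0.16, limma adjusted p = 0.0853), the largest of the 10. Gpi1 (chr7:34201330-34230336, minus strand) encodes glucose-6-phosphate isomerase, which makes fructose 6-phosphate. It had 152, 182 and 184 FPKM in the knockouts, against 109, 144 and 118 FPKM in the controls. Knockout 1 exceeded control 2, the highest control, by 8.10 FPKM. The log2 fold change of Gpi1 was 0.48 (SE 0.13, limma adjusted p = 0.107).

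Phosphofructokinase commits the sugar to glycolysis, and its liver-type and platelet-type subunits are encoded by Pfkl (chr10:77986947-78010083, minus strand) and Pfkp (chr13:6579768-6648777, minus strand). Pfkl had 103, 128 and 118 FPKM in the knockouts, against 58.3, 81.9 and 90.3 FPKM in the controls. Control 1 was well below the other two controls, and the groups were 12.3 FPKM apart. The log2 fold change of Pfkl was 0.61 (SE 0.17, limma adjusted p = 0.114). Pfkp, the least abundant of the 10, had 12.88, 14.4 and 16.0 FPKM in the knockouts, against 9.42, 12.85 and 10.5 FPKM in the controls. Knockout 1 and control 2 differed by 0.0295 FPKM, well inside either group's SD of 1.58 FPKM in knockouts and 1.75 FPKM in controls, and under upper-quartile scaling of the libraries the groups overlapped. Its log2 fold change of 0.38 (SE 0.13) had the highest adjusted p of the 10 in limma, 0.1475. Pfkp shares 748 exon bases with Pitrm1 on the opposite strand. Hk2 (with Gm17034), Gpi1 (Gm26762), Aldoa (Fam57b) and Tpi1 (Spsb2) also overlap a gene on the opposite strand, and the strand setting of the counting was not stated, so reads of these 5 enzymes and of their partners may not be told apart. Pkm overlaps 1 gene on its own strand, not protein-coding, which a strand setting would not separate.

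Aldolase A, encoded by Aldoa (chr7:126795234-126800751, minus strand), splits fructose 1,6-bisphosphate into triose phosphates. Aldoa had 1067, 1129 and 1176 FPKM in the knockouts, against 851, 903 and 755 FPKM in the controls, the highest levels of the 10. Knockout 1 was the lowest knockout and control 2 the highest control, and the groups were 164 FPKM apart. The log2 fold change was 0.43 (SE 0.11, limma adjusted p = 0.1015). The deposited table carries the symbol Aldoa on a further row, at 2.54, 3.11 and 4.47 FPKM in the knockouts and 1.599, 2.31 and 1.63 FPKM in the controls, which was not added. Triose-phosphate isomerase, encoded by Tpi1 (chr6:124810586-124814296, minus strand), interconverts the triose phosphates. Tpi1 had 249, 238 and 232 FPKM in the knockouts, against 188, 184 and 187 FPKM in the controls. Its controls were the tightest of any of the 10 enzymes, with an SD of 8.58 FPKM in knockouts and 1.64 FPKM in controls, and its log2 fold change of 0.36 (SE 0.08, limma adjusted p = 0.0823) was the smallest.

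In the payoff phase, Pgk1 (chrX:106187100-106203699, plus strand) encodes phosphoglycerate kinase 1, which forms ATP from 1,3-bisphosphoglycerate. Pgk1 had 256, 295 and 254 FPKM in the knockouts, against 161, 187 and 192 FPKM in the controls. The nearest libraries, knockout 3 and control 3, were 62.6 FPKM apart. The means were 268 ± 23.0 FPKM in knockouts and 180.0 ± 16.5 FPKM in controls (SD, n = 3 each), and the log2 fold change of 0.57 (SE 0.11) had the lowest limma adjusted p of the 10, 0.07865. Pgam1 (chr19:41911923-41918660, plus strand) encodes phosphoglycerate mutase 1, which moves the phosphate to the position used by enolase. Pgam1 had 281, 289.8 and 254 FPKM in the knockouts, against 166, 189 and 214 FPKM in the controls. Knockout 3 was the lowest knockout and control 3 the highest control, 40.1 FPKM below it. The log2 fold change of Pgam1 was 0.54 (SE 0.12, limma adjusted p = 0.0823).

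Enolase 1, encoded by Eno1 (chr4:150236721-150248879, plus strand), removes water to form phosphoenolpyruvate. Eno1 had 481, 564 and 547 FPKM in the knockouts, against 349, 408 and 413 FPKM in the controls. The groups were 67.8 FPKM apart, and the log2 fold change was 0.44 (SE 0.11, limma adjusted p = 0.0993). Pkm (chr9:59656368-59679375, plus strand) encodes the muscle-type pyruvate kinases M1 and M2 by alternative splicing, which gene-level values do not separate. Pkm had 277, 326 and 343 FPKM in the knockouts, against 195, 248 and 214 FPKM in the controls. Knockout 1 was 28.2 FPKM above control 2, the highest control, and the log2 fold change was 0.52 (SE 0.13, limma adjusted p = 0.0945). The 95% intervals of all 10 log2 fold changes share the range from 0.36 to 0.54. Overlap of these intervals does not compare enzymes measured in the same libraries. Whether the enzymes differ from each other in the size of the difference was not tested.

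Several of these genes have near-identical copies elsewhere in the genome, at 95% identity or more over at least 200 bases, between which reads could be split. Pgk1 had 4 such copies, all processed pseudogenes, Eno1 had 3, and Gpi1, Tpi1, Pgam1 and Pkm had 1 processed pseudogene each; Hk2, Pfkl and Aldoa had 0. The copies of Eno1 include the annotated gene Eno1b, 99.5% identical over 1736 bases. Eno1b, a gene singled out once its values were known, had 43.5, 51.4 and 49.2 FPKM in the knockouts, against 34.4, 38.2 and 36.0 FPKM in the controls, with a log2 fold change of 0.40 (SE 0.09, limma adjusted p = 0.0879). Its reads cannot be assigned apart from those of Eno1 with certainty.

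**Figure D2:**
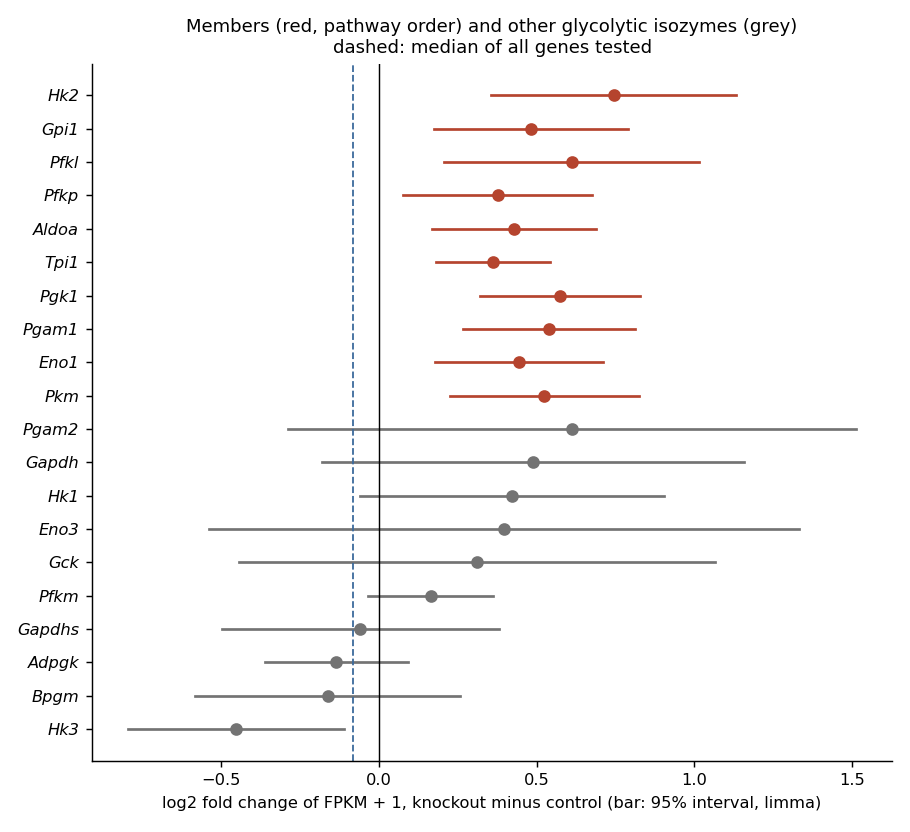
Log2 fold change of FPKM + 1, knockout minus control, with its 95% limma interval for the 10 enzymes (red, in pathway order) and the 10 tested genes among the other glycolytic isozymes (grey, by size); the dashed line marks the median of all genes tested, −0.08. The red intervals all lie above 0, from Tpi1 at 0.36 to Hk2 at 0.74, and among the grey intervals only that of Hk3 excludes 0, on the lower side.

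The order of abundance was much alike in both genotypes. By mean FPKM, which is per length, it ran Aldoa, Eno1, Pkm, Pgam1, Pgk1, Tpi1, Gpi1, Pfkl, Hk2 and Pfkp in knockouts, and in controls Tpi1 preceded Pgk1. In knockouts the ranges of Pkm and Pgam1 overlapped, as did those of Pgam1 and Pgk1, and all other neighbours were apart. In controls the overlapping neighbours were Pkm and Pgam1, Pgam1 and Tpi1, and Tpi1 and Pgk1. Aldoa exceeded Pfkp 77.8-fold in knockouts and 76.5-fold in controls. Such ratios, and the order, depend on the lengths used. Merged exons span 2911 bases for Aldoa and 13401 for Pfkp, and their longest coding transcripts 1549 and 4145. Order and ratios by transcript length were not worked out. Summed over the 10 genes, the level was 2948, 3250 and 3197 FPKM in the knockouts, against 2140, 2393 and 2240 FPKM in the controls. That sum made up 0.927%, 0.998% and 1.03% of all FPKM in the knockouts, against 0.719%, 0.753% and 0.707% in the controls. Knockout 2 was the highest library for 5 genes, knockout 3 for 4 and knockout 1 for 1, and control 1 was the lowest for 7. Each of the 3 knockout libraries exceeded every control for 10 of the 10 genes.

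Within steps, the isozyme make-up was compared as a share of the step's summed FPKM, over 5 steps. The size of a share depends on the exon lengths used, such as 13401 bases for Pfkp and 3340 for Pfkm. Hk2 made up 90.7%, 91.1% and 92.2% of hexokinase transcripts (Hk1, Hk2 and Hk3) in the knockouts, against 90.5%, 86.9% and 84.7% in the controls. The knockouts were all higher, by 3.95 points on average, with an exact two-sided permutation p of 0.1, the smallest that 3 against 3 allows, and 0.5 after adjustment over the 5 steps. Hk1, the widely expressed hexokinase, had 6.02, 6.65 and 4.31 FPKM in the knockouts, against 3.40, 3.14 and 5.51 FPKM in the controls, and these groups overlapped. Hk3, a hexokinase of blood cells, had 1.19, 1.51 and 1.81 FPKM in the knockouts, against 2.22, 2.04 and 3.07 FPKM in the controls, all lower, with a log2 fold change of −0.45 (SE 0.15, limma unadjusted p = 0.0164, adjusted p = 0.135). Pfkp averaged 9.58% of phosphofructokinase transcripts in knockouts and 10.4% in controls (exact permutation p = 0.4, adjusted 0.667). The muscle subunit Pfkm had 18.18, 21.5 and 20.9 FPKM in the knockouts, against 18.17, 17.7 and 17.8 FPKM in the controls, a log2 fold change of 0.16 (SE 0.08, limma adjusted p = 0.2795).

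**Figure D3:**
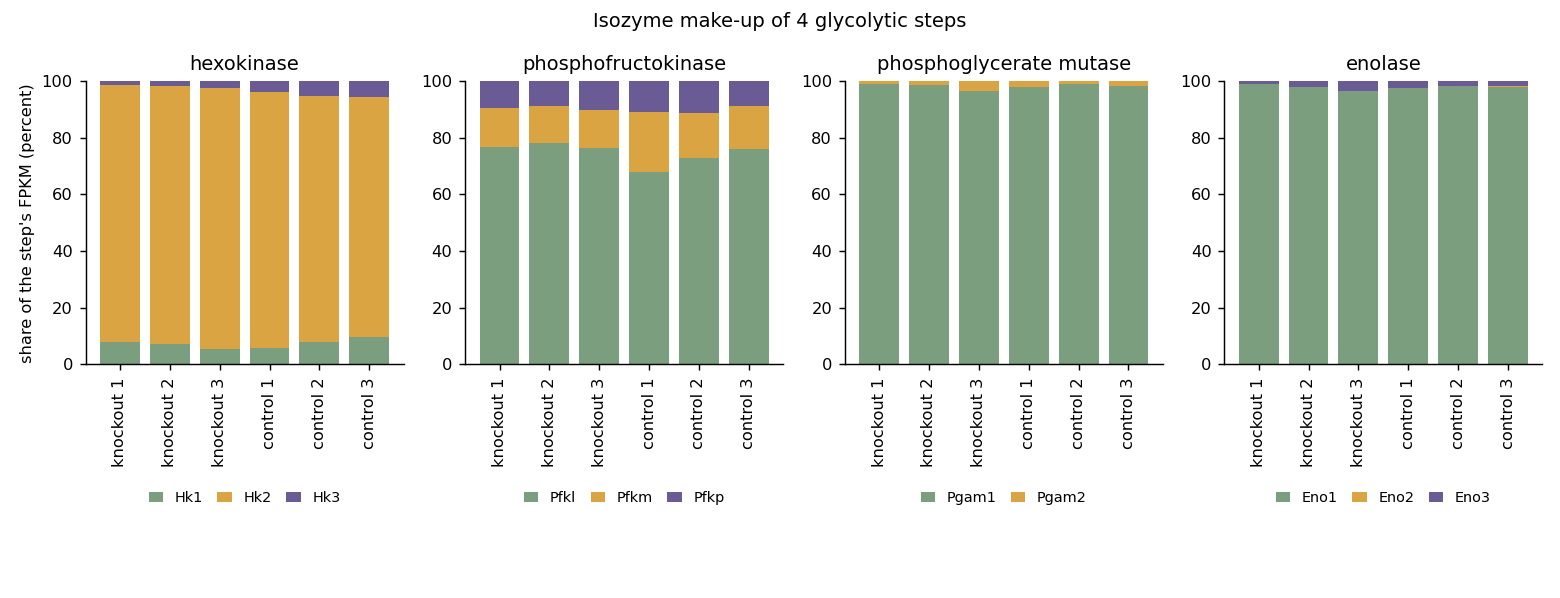
Percent of a step's summed FPKM contributed by each isozyme gene in the 3 knockout and 3 control libraries, for hexokinase, phosphofructokinase, phosphoglycerate mutase and enolase. Hk2, Pfkl, Pgam1 and Eno1 hold most of their step in every library, and the muscle isozymes Pgam2 and Eno3 are highest in knockout 3, at 3.65% and 3.54%.

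Glycolytic enzymes are also abundant in skeletal muscle, and muscle transcripts varied between these libraries. Acta1, the skeletal muscle actin, had 8.06, 28.9 and 103 FPKM in the knockouts, against 25.6, 6.33 and 18.1 FPKM in the controls. The summed level of 20 skeletal muscle genes was 55.1, 154 and 435 FPKM in the knockouts, against 112, 52.4 and 86.7 FPKM in the controls, with Tnnc2 at 0 in every library. All 13 muscle genes tested had positive log2 fold changes, although by the unadjusted threshold 0 were higher and 0 lower. Their median log2 fold change was 1.04, or 0.26 without knockout 3. The muscle isozyme Eno3 had 5.09, 11.7 and 20.1 FPKM in the knockouts, against 8.78, 7.24 and 7.88 FPKM in the controls. Pgam2, the muscle mutase, had 2.58, 4.48 and 9.60 FPKM in the knockouts, against 3.38, 1.87 and 3.62 FPKM in the controls. The knockout and control ranges overlapped for both genes, and their shares of a step did not separate by genotype (Pgam2 2.03% in knockouts and 1.55% in controls, exact permutation p = 0.9; Eno3 2.21% and 2.02%, exact permutation p = 0.8; both adjusted 0.9).

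Knockout 1, whose muscle sum lay below those of controls 1 and 3 and above that of control 2, exceeded every control in 10 of the 10 glycolytic enzymes. Without knockout 3, the library richest in muscle transcripts, the median log2 fold change of the 10 was 0.45, and 9 of 10 were higher at an unadjusted limma p under 0.05. Pfkp, at a log2 fold change of 0.30, was the exception. With Acta1 as a covariate the 10 log2 fold changes were 0.36 to 0.66, and again all but Pfkp had an unadjusted limma p under 0.05. Hk2, Pgk1, Tpi1 and Pgam1 had slightly larger log2 fold changes without knockout 3, at 0.77, 0.61, 0.38 and 0.60. Those of Gpi1, Pfkl, Pfkp, Aldoa, Eno1 and Pkm were smaller without knockout 3, at 0.43, 0.60, 0.30, 0.40, 0.42 and 0.46.

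**Figure D4:**
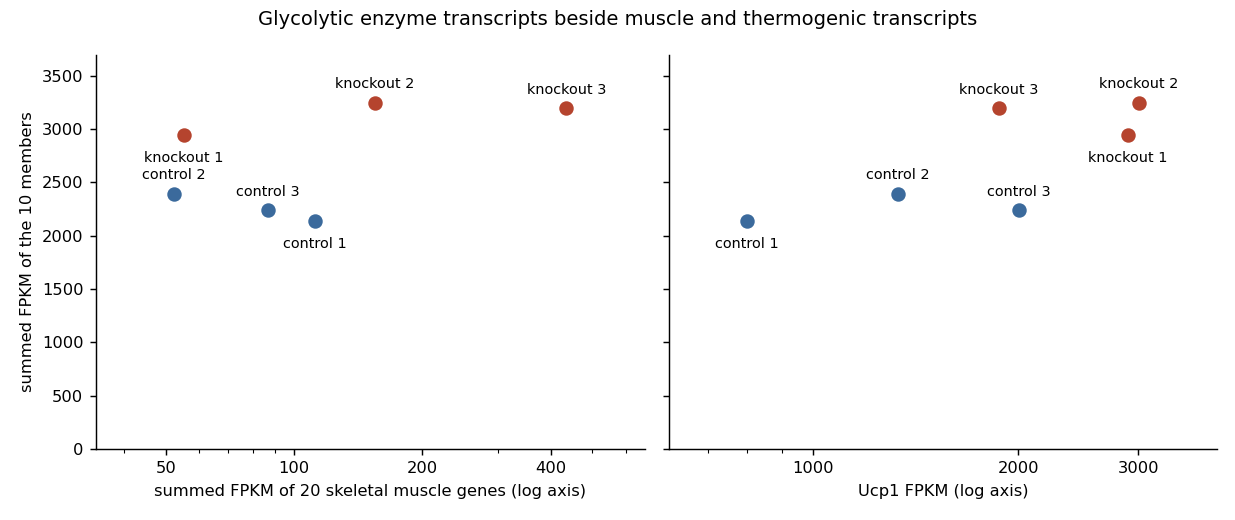
Summed FPKM of the 10 glycolytic enzyme genes in each library (vertical axis, from 0) against the summed FPKM of 20 skeletal muscle genes (left, log axis) and Ucp1 FPKM (right, log axis), with knockouts in red and controls in blue. The knockouts lie at 2948 to 3250 FPKM and the controls at 2140 to 2393 FPKM, while the muscle sums and Ucp1 values of the groups overlap. The sum over 9 thermogenic adipocyte genes, not plotted, does not overlap, at 3476 to 5126 FPKM in knockouts and 1608 to 3384 FPKM in controls. Of these 9 genes, 3 have every knockout above every control, against 8.48% of all genes tested.

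Markers of other cells in the depot were examined beside these values, and 0 genes of any marker list passed the adjusted threshold. Thermogenic adipocyte genes had a median log2 fold change of 0.79. At an unadjusted limma p under 0.05, 4 of 9 were higher, against 6.98% of all genes tested. They summed to 3476 to 5126 FPKM in knockouts and 1608 to 3384 FPKM in controls. Ucp1 had 2898, 3009 and 1875 FPKM in the knockouts, against 799.9, 1333 and 2007 FPKM in the controls. Control 1 was lowest in Ucp1, in the thermogenic sum (1608 FPKM) and in 7 of the glycolytic enzymes. Knockout 3 was below control 3 in Ucp1. It was above control 3 in the thermogenic sum (3476 against 3384 FPKM) and in 10 of 10 enzymes. All 9 thermogenic genes had positive log2 fold changes, and their sums did not overlap between the groups. Gene by gene, every knockout stood above every control for 3 of the 9, against 8.48% of all genes tested. Ucp1, Cidea and Cox8b, the most abundant of the list, overlapped between the groups. Without control 1 the median of the enzymes was 0.44, and 9 of 10 were higher at an unadjusted limma p under 0.05. Macrophage genes were lower in 10 of 10 tested at an unadjusted limma p under 0.05, against 17.1% of all genes tested, and summed to 369 to 479.7 FPKM in knockouts and 585 to 779 FPKM in controls. Among mature adipocyte genes 3 of 10 were lower, led in level by Cfd, the adipsin gene, at 3569 to 4409 FPKM in knockouts and 5796 to 6621 FPKM in controls, with a list sum of 9751 to 10720 FPKM in knockouts and 12460 to 13750 FPKM in controls. Progenitor and fibroblast genes were lower in 5 of 10, with sums of 470.0 to 604 FPKM in knockouts and 497 to 1170 FPKM in controls. Endothelial genes were lower in 1 of 8, with sums of 90.5 to 108 FPKM in knockouts and 79.95 to 152 FPKM in controls. The red cell list had 0 of 5 tested genes past an unadjusted p of 0.05, the neutrophil list 1 of 3, which was lower, and the lymphocyte list 0 of 1. Sums over the lymphocyte list were 1.88 to 4.28 FPKM in knockouts and 2.72 to 4.20 FPKM in controls. Epithelial genes were too low to test, at sums of at most 0.699 FPKM in knockouts and 1.26 FPKM in controls, with Krt14 at 0 throughout. The part of these cell populations in the glycolytic values was not tested.

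The step between Tpi1 and Pgk1 is catalysed by glyceraldehyde-3-phosphate dehydrogenase, encoded by Gapdh. Gapdh had 52.5, 48.4 and 81.3 FPKM in the knockouts, against 30.6, 61.8 and 38.8 FPKM in the controls. The groups overlapped, and its log2 fold change of 0.49 (SE 0.28) had a limma adjusted p of 0.329, although its size was close to the median of the 10 enzymes. Near copies were sought for the 10 enzymes only, so whether reads of Gapdh were split between copies was not tested. Its FPKM is per 4133 merged exon bases, and it overlaps Iffo1 on the opposite strand. Its level is therefore not read against those of Tpi1 and Pgk1. Of 17 other glycolytic isozymes, 10 were tested. Of these, 0 were higher and 1 (Hk3) was lower at an unadjusted limma p under 0.05, against 6.98% and 17.1% of all genes tested. Their median log2 fold change was 0.24, or 0.08 without knockout 3. The number higher was 3 without knockout 1, 2 under median-of-ratios or upper-quartile scaling, and 1 without knockout 3, control 2 or control 3. Under those scalings 13% and 12% of all genes tested were higher. The testis and liver isozymes Pgk2 and Pklr were listed at 0 in every library.

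**Figure D5:**
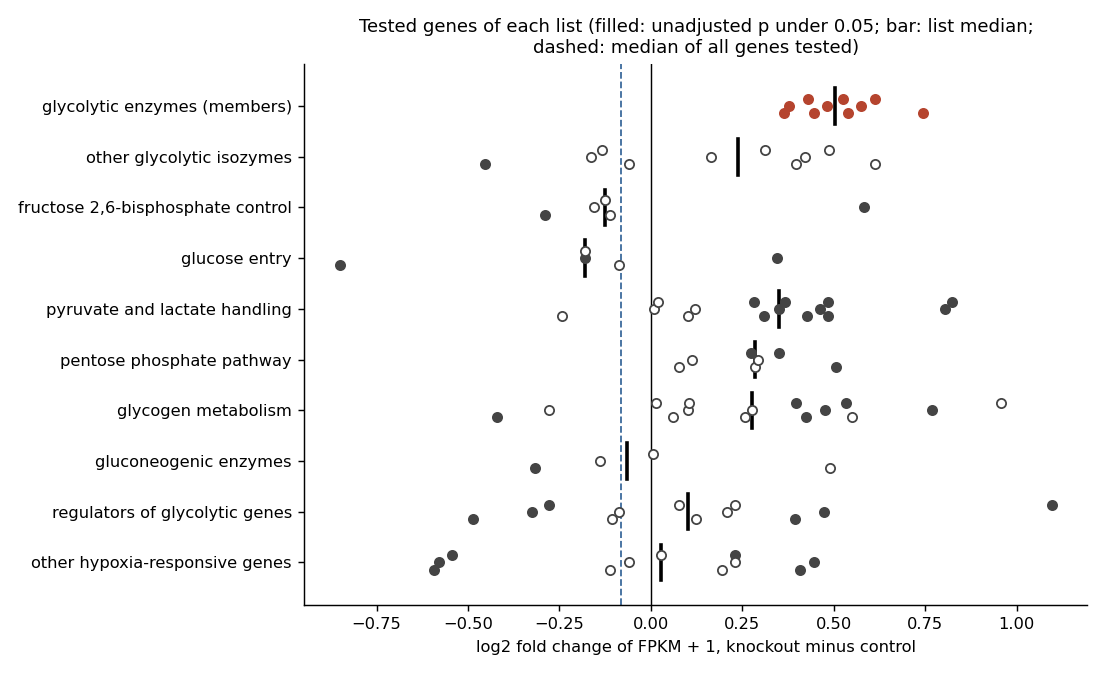
Log2 fold change of FPKM + 1, knockout minus control, of each tested gene in the 10 glycolytic enzymes (red) and in 9 lists of related genes (grey); filled points have an unadjusted limma p under 0.05, black bars are list medians and the dashed line is the median of all genes tested. The list medians run from −0.18 for glucose entry to 0.50 for the glycolytic enzymes, with pyruvate and lactate handling next at 0.35.

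Downstream of Pkm, genes that handle pyruvate and lactate also had higher values. At an unadjusted limma p under 0.05, 10 of 15 were higher and 0 lower, against 6.98% and 17.1% of all genes tested. The median log2 fold change was 0.35, although 0 passed the adjusted threshold. Without knockout 2 the count of genes higher was 6. Ldha, the lactate dehydrogenase subunit that favours lactate formation, had 528, 575 and 539 FPKM in the knockouts, against 412, 436 and 425 FPKM in the controls, with a log2 fold change of 0.37 (SE 0.09, limma adjusted p = 0.0929). Pdhb and Dlat, subunits of the pyruvate dehydrogenase complex, averaged 385 and 183 FPKM in knockouts, against 279 and 136 FPKM in controls, with log2 fold changes of 0.46 and 0.43. Mpc2, a subunit of the mitochondrial pyruvate carrier, had 81.0, 97.6 and 86.6 FPKM in the knockouts, against 56.0, 68.2 and 64.7 FPKM in the controls, a log2 fold change of 0.48. For Ldha, Pdhb, Dlat and Mpc2, named for the smallest unadjusted p of the list, every knockout stood above every control. In the whole list this held for 9 of the 15 genes tested, against 8.48% of all genes tested.

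Genes of glucose entry, upstream of the pathway, were mixed. At an unadjusted limma p under 0.05, 1 of 5 glucose entry genes was higher and 2 were lower, against 6.98% and 17.1% of all genes tested. Their median log2 fold change was −0.18. The higher one was lost without knockout 1, knockout 3 or control 3, with no filter, with the replicate block and with Acta1 as a covariate. Both lower ones were lost under median-of-ratios and upper-quartile scaling and without knockout 1, knockout 2 or control 2. Of these lower genes, Slc2a8 was also lost without any other library, with the replicate block, with Acta1 as a covariate and with voom. Slc2a4, the insulin-responsive glucose transporter GLUT4, had 164, 149 and 179 FPKM in the knockouts, against 140.5, 145 and 105 FPKM in the controls, a log2 fold change of 0.34 (SE 0.14, limma adjusted p = 0.202). Txnip, which restrains glucose uptake, had 115, 198 and 268 FPKM in the knockouts, against 308, 425 and 274 FPKM in the controls, a log2 fold change of −0.85 (SE 0.31, limma adjusted p = 0.165). The transporter Slc2a8 was the other lower gene, at 8.13 FPKM in knockouts and 9.35 FPKM in controls on average. Slc2a1, the basal transporter GLUT1, averaged 2.91 FPKM in knockouts and 3.41 FPKM in controls, and its groups overlapped.

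Of 5 tested genes that set the level of fructose 2,6-bisphosphate, 1 was higher and 1 lower at an unadjusted limma p under 0.05. The shares of all genes tested were 6.98% and 17.1%. The median log2 fold change of the 5 was −0.13. Fructose 2,6-bisphosphate activates phosphofructokinase. Tigar, a phosphatase that breaks it down, had 7.34, 9.74 and 8.40 FPKM in the knockouts, against 5.57, 5.11 and 5.26 FPKM in the controls, a log2 fold change of 0.58 (SE 0.11, limma adjusted p = 0.0768). Pfkfb2, a bifunctional enzyme that makes and breaks it, averaged 1.07 FPKM in knockouts and 1.53 FPKM in controls, a log2 fold change of −0.29. Pfkfb1 averaged 14.9 FPKM in knockouts and 16.7 FPKM in controls, and Pfkfb3, the most abundant of the family here, 129 FPKM in knockouts and 143.5 FPKM in controls, both with overlapping groups.

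Branches that draw on glucose 6-phosphate had positive medians. The pentose phosphate pathway makes NADPH and ribose. At an unadjusted limma p under 0.05, 3 of its 7 tested genes were higher and 0 lower, against 6.98% and 17.1% of all genes tested. Under median-of-ratios scaling 5 were higher, against 13% of all genes. The pathway's median log2 fold change was 0.28. Pgd, its second oxidative dehydrogenase, had 171, 173 and 199.8 FPKM in the knockouts, against 128, 149 and 108 FPKM in the controls, a log2 fold change of 0.51 (SE 0.13, limma adjusted p = 0.104). The log2 fold changes of Rpia, Taldo1 and Tkt in its non-oxidative arm were 0.35, 0.27 and 0.28, that of Tkt with an unadjusted p of 0.0655. In glycogen metabolism, 5 of 15 were higher and 1 lower, with a median of 0.28. Gys2, a glycogen synthase, had 57.4, 58.6 and 54.2 FPKM in the knockouts, against 39.9, 40.5 and 36.3 FPKM in the controls, a log2 fold change of 0.53 (SE 0.08, limma adjusted p = 0.0705). Ppp1r3b, which targets protein phosphatase 1 to glycogen, and Ugp2, which makes UDP-glucose, had log2 fold changes of 0.77 and 0.40. The glycogen phosphorylase gene Pygb was the lower one, at 36.4 FPKM in knockouts and 49.2 FPKM in controls on average. Of 4 tested gluconeogenic genes, 0 were higher and 1 was lower (Pck2, log2 fold change −0.32). Pck1, used in fat to make glyceride glycerol, had 669.8, 778 and 811 FPKM in the knockouts, against 619, 1035 and 879 FPKM in the controls, and Fbp2 and G6pc3 likewise overlapped between groups.

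Known regulators of glycolytic genes were mixed. By the unadjusted threshold 3 of 12 were above and 3 below, against 6.98% and 17.1% of all genes tested. Their median log2 fold change was 0.10. Under median-of-ratios scaling 5 were above, against 13% of all genes. Ppargc1a, the coactivator PGC-1α, had 12.2, 20.8 and 12.1 FPKM in the knockouts, against 5.65, 8.03 and 5.44 FPKM in the controls, a log2 fold change of 1.10 (SE 0.23, limma adjusted p = 0.0823). Mlx, a partner of the carbohydrate-response factor, and Esrra, an oestrogen-related receptor, had log2 fold changes of 0.39 and 0.47. Arnt, the partner subunit of hypoxia-inducible factors, had 7.74, 7.42 and 7.18 FPKM in the knockouts, against 9.17, 9.11 and 9.47 FPKM in the controls, a log2 fold change of −0.28. Hypoxia-responsive genes outside glycolysis were split as well, with 3 of 11 higher and 3 lower and a median of 0.03. Higd1a and Egln1, a mitochondrial protein and an oxygen sensor, had log2 fold changes of 0.41 and 0.44. Bnip3, a mitophagy receptor, had 36.6, 36.8 and 38.3 FPKM in the knockouts, against 68.6, 51.7 and 49.7 FPKM in the controls, a log2 fold change of −0.58 (SE 0.13, limma adjusted p = 0.0853), and that of Ndrg1 was −0.54.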

How the data were processed

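Polyadenylated RNA from inguinal white adipose tissue of 3 knockout and 3 control samples was sequenced with a stranded kit on an Illumina instrument, per the labels' protocols. Reads were handled with cutadapt, HISAT2 and HTSeq against mm10, per the submitters' processing notes; no source used here gives the strand setting or versions. The authors deposited FPKM values per gene symbol. Of 21936 rows, 36 that repeated a symbol (at most 2.61 FPKM on average) were left out, keeping the more abundant row.

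Genes averaging 1 FPKM or more in knockouts or in controls were tested on log2(FPKM + 1) with limma-trend 3.58.1 in R 4.3.3, genotype as the only term and Benjamini-Hochberg adjustment over all genes; fold changes are knockout minus control and are understated for low genes. Scripts were tested on simulated data. Exact permutation tests (scipy 1.17.1) compared isozyme shares at 5 steps, of which 1 is not reported here. With exon lengths from GENCODE M21, 97.86% to 98.08% of values up to 50 reads came out whole within 0.05, which gave the reads behind each value and a voom alternative. Near copies were sought with BLAST 2.17.0. The counting errors given cover read sampling only.

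All 10 enzymes, the isozymes entering a share, up to 4 tested genes with the smallest unadjusted p per related list and up to 3 most abundant genes per cell type list could be named. The enzymes and lists were chosen with earlier results of these data known. Alternatives covered the pseudocount, the filter, scaling, a replicate block, Acta1 as a covariate and leaving out each library.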

Additional observations from a re-analysis of the deposited data

How the results depend on the processing

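The median log2 fold change of the 10 enzymes was positive under each of the 14 alternatives run, and none of these alternatives brought any enzyme to an adjusted limma p under 0.05. Across them the lowest adjusted p was 0.0562, with median-of-ratios scaling, and the highest 0.363, without knockout 2. The count of enzymes higher at an unadjusted p under 0.05 was 9 without knockout 2, knockout 3 or control 1 and with Acta1 as a covariate, Pfkp being lost each time, and 10 otherwise. With a replicate block the count was 10, the median 0.50 and the adjusted p-values 0.135 to 0.178. Against 1 gene of the whole table past the adjusted threshold, there were 0 with the replicate block, with no filter, with Acta1 as a covariate, with voom and without knockout 1 or control 1, 2 with a filter at 5 FPKM, 3 without knockout 3 and 5 without control 3. Same-numbered libraries did not deviate together (correlations 0.065, 0.027 and −0.254), so the numbers were not taken to pair samples. Leaving out 1 library at a time, the phosphoglycerate mutase isozyme share (Pgam2) differed by −0.332 to 1.04 points and the enolase isozyme share (Eno3) by −0.483 to 0.766 points, both negative without knockout 3, the library highest in muscle transcripts. Likewise the log2 fold changes ranged from −0.287 to 0.0613 for Pfkfb3, from −0.346 to 0.0241 for Pck1, from −0.0628 to 0.0684 for G6pc3 and from −0.0245 to 0.873 for Eno3, which was −0.0112 with Acta1 as a covariate. The cause was not tested. Counting error was at most 2.37% for any of the 10 enzymes in any library.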
